A study of Equus caballus with 33 samples.

Results

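The genes described are 37 members of the glycolytic pathway and of the transcriptional response to low oxygen, measured in explants of horse articular cartilage cultured with or without interleukin-1β (IL-1β). They were chosen by name with earlier results of these data known. Each was taken from a probe set that the platform annotation assigns to that symbol alone. All 37 had 1 such probe set, out of 16661 gene symbols represented on the array. IL-1β is an inflammatory cytokine used in culture to model joint disease. Cartilage was taken after death from the lower end of the metacarpal bone in 3 horses that showed no joint disease, and explants were first kept for 48 h in medium. One arm then received recombinant equine IL-1β at 10 ng/mL and was harvested on 5 occasions (days 3 and 9, days 15 and 21, and day 27), while the control arm had medium without the cytokine and was sampled on the same days and at day 0. The 33 arrays form 11 groups of 3, with 15 stimulated and 18 control arrays. Every group shares the same handling, in which 2 explants were minced, digested with trypsin and collagenase, and lysed for RNA, so that the cells had been released from their matrix before lysis.

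Glycolysis splits glucose into pyruvate. Glucose enters through membrane transporters, is trapped by hexokinase, is committed by phosphofructokinase, and yields lactate when lactate dehydrogenase reduces the pyruvate. Articular cartilage has no blood vessels, and its resident cell, the chondrocyte, lives at low oxygen and depends largely on this route for energy. Many of these genes are also targets of hypoxia-inducible factor (HIF), whose alpha subunit is marked for destruction by oxygen-dependent prolyl hydroxylases and accumulates when oxygen is scarce.

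Signals are normalised log2 values and differences are stimulated minus control on the same scale, so that a difference of 1 is a doubling. Signals are compared between arrays of a gene and not between genes. The error after ± is the standard error (SE) of the limma fit unless SD is given, with 3 arrays per group, and a call is an adjusted p under 0.05 over all 25923 probe sets. A fit without 1 replicate has 11 residual degrees of freedom in place of 22, so that a call can be lost at an unchanged difference. Array medians lay between 5.16 and 5.38, and the control array of day 27, replicate 3, stood apart on the second principal component. Of the chondrocyte markers, 9 of 10 had a mean signal above that of the median probe set. In stimulated explants of days 3 to 27 the mean signal of these 10 markers was 6.49 to 8.12, against 8.62 to 9.22 in controls, and 6 of 10 fell with IL-1β on average while 0 rose (0 higher at an unadjusted p under 0.05). The 11 measured macrophage and monocyte markers had mean signals of 4.87 to 5.34 with IL-1β and 4.60 to 4.99 without it. Of these 11 markers, 2 rose, 1 fell and 8 did not pass, with a median difference of -0.08. FCER1G rose by 3.44 ± 0.11 and CD68 by 0.58 ± 0.13, and LYZ fell by 0.38 ± 0.14. The leukocyte marker PTPRC did not pass and had a mean signal of 3.49, above 22.8% of probe sets. Of the osteoclast markers 2 of 5 rose, of the synovial fibroblast markers 2 of 5 rose and 1 fell, and of the endothelial markers 3 of 5 fell. Of the osteoblast and osteocyte markers 2 of 5 fell, and 1 of 3 neutrophil and 1 of 4 skeletal muscle markers rose. Beside these counts on average over days, 15.6% of all probe sets rose and 15.3% fell. The part of these marker differences in the results that follow was not tested. In such bulk samples, a change in the number of cells of a type and a change in RNA per cell cannot be told apart.

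Averaged over the 5 days, most of the pathway was higher with IL-1β. Among the 37 genes were 28 rises, 3 falls and 6 that missed the threshold, whereas 15.6% of all probe sets rose and 15.3% fell in the same test. All 37 were among the 12961 probe sets above the median signal. When only these were tested, 3871 of the 12961 rose and 2962 fell, with 28 rises and 4 falls among the 37. The median difference of the 37 genes was 0.89, against -0.04 over all probe sets. The glucose transporter gene SLC2A1 had the highest difference, 1.98 ± 0.10 or 3.95-fold, and the lactate dehydrogenase gene LDHB the lowest, -0.90 ± 0.06. The stimulated arrays of days 3 to 27 all lay above the control arrays of those days for 11 of the 37 genes, and all below for 1. This held for 1.55% and 1.44% of all probe sets. The 11 genes were SLC2A1, HK2, ALDOA, TPI1, GAPDH, PGK1, PGAM1, PKM, LDHA, SLC16A1 and ADM, and the gene with the opposite separation was LDHB. The 6 genes that did not pass were PFKM, PFKFB4, ALDOC, ENO1, ENO2 and HIF1A. With the replicate number as a fixed block, ALDOC was called higher (0.22, adjusted p = 0.0139) and ENO2 lower (-0.22, adjusted p = 0.022). With it as a random block, ENO2 alone was added (adjusted p = 0.0364).

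**Figure D1:**
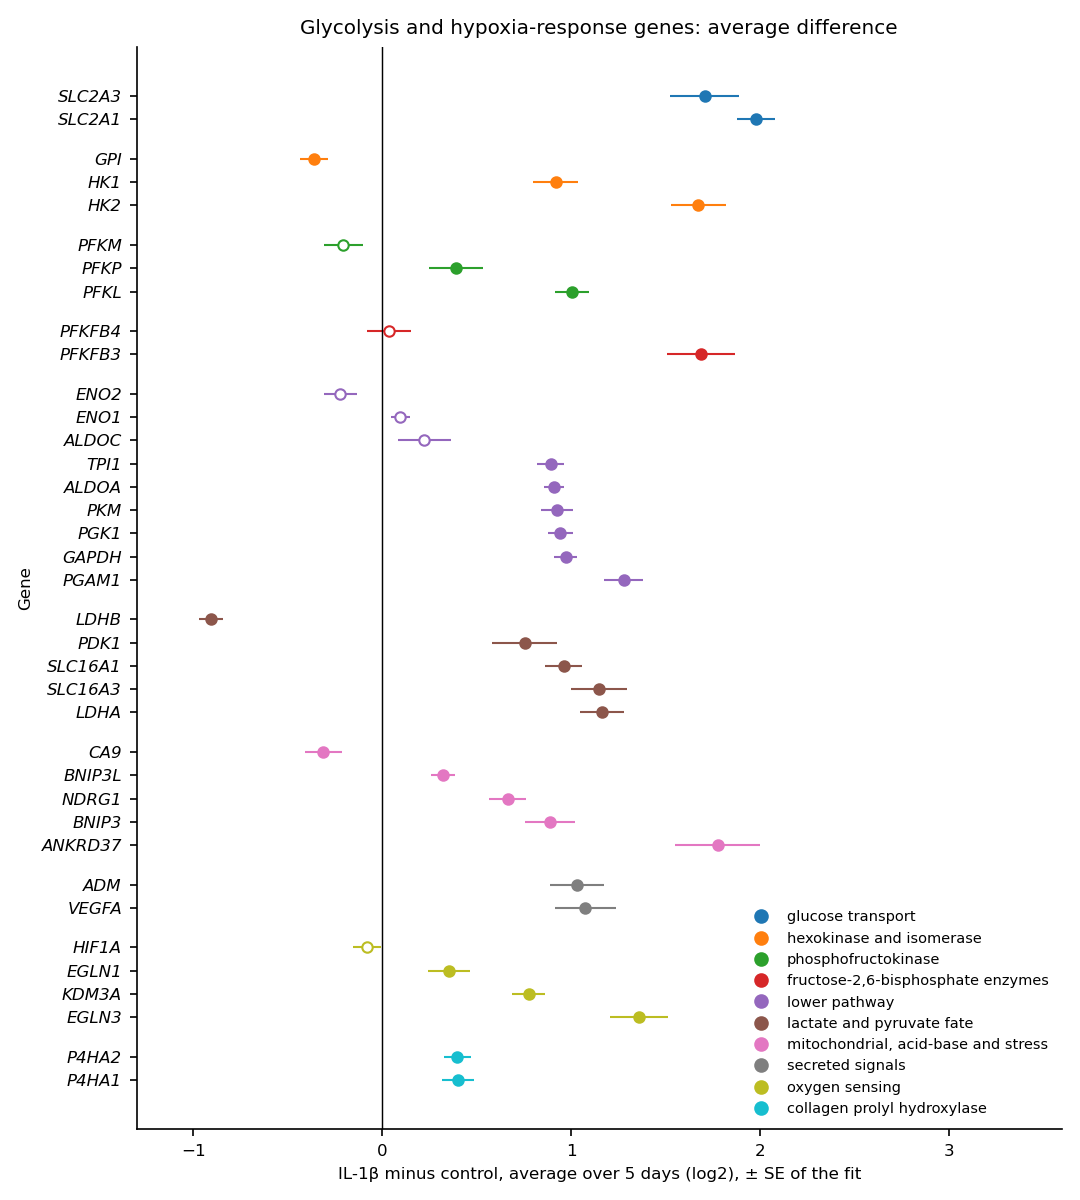
Difference in log2 signal between stimulated and control explants, averaged over 5 days, for the 37 genes ordered by role; points are estimates, bars the standard error of the limma fit, and open points did not pass the test. Points lie to the right of 0 for 31 genes, and LDHB stands lowest at -0.90.

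Both measured glucose transporters of the set rose. SLC2A1 encodes GLUT1, the widely expressed transporter of basal glucose uptake. Its signal ran from 11.11 to 12.13 with a median of 11.73 in the 15 stimulated arrays, and from 9.21 to 10.39 with a median of 9.66 in the 15 control arrays of days 3 to 27. At day 3 the stimulated arrays read 12.02, 11.75 and 11.74 for SLC2A1, against 9.89, 10.39 and 9.36 without IL-1β. The day 0 arrays of SLC2A1 read 9.84, 9.44 and 9.35, so that stimulated explants stood above both sets of controls by the earliest harvest (difference 1.95 ± 0.22 at day 3, adjusted p = 1.95e-06).

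SLC2A3 encodes GLUT3, a transporter of high glucose affinity. At day 3 its 3 stimulated arrays read 9.12, 8.95 and 9.26 and overlapped with the controls at 8.75, 8.67 and 9.40. At day 27 SLC2A3 read 12.01, 11.93 and 10.80 with IL-1β and 9.74, 9.00 and 8.98 without it, and the groups were apart. The difference was 0.17 ± 0.41 at day 3 and 2.34 ± 0.41 at day 27, with an average of 1.71 ± 0.18 (adjusted p = 2.21e-08). The call at day 9, 1.72 ± 0.41, rested on replicate 2, whose control array read 7.45 for SLC2A3. Without replicate 2 the difference was 0.91 (adjusted p = 0.489).

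Among the enzymes that trap and isomerise glucose, the hexokinases rose and glucose phosphate isomerase fell. HK2, the hexokinase that is most often regulated by demand, ranged from 8.30 to 9.84 in stimulated arrays and from 6.39 to 8.20 in controls of days 3 to 27, with no overlap. Its average difference was 1.68 ± 0.14 (adjusted p = 3.86e-10). HK1, the constitutive form, ranged from 8.01 to 9.68 against 7.60 to 8.75, an overlap, and rose by 0.92 ± 0.12. GPI, which converts glucose phosphate to fructose phosphate, was lower with IL-1β in 15 of 15 comparisons matched for day and replicate number (called pairs here), at 9.91 to 10.70 against 10.58 to 11.11. The fall of GPI was small, 0.36 ± 0.07 (adjusted p = 0.000341), and the ranges of the arms overlapped.

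**Figure D2:**
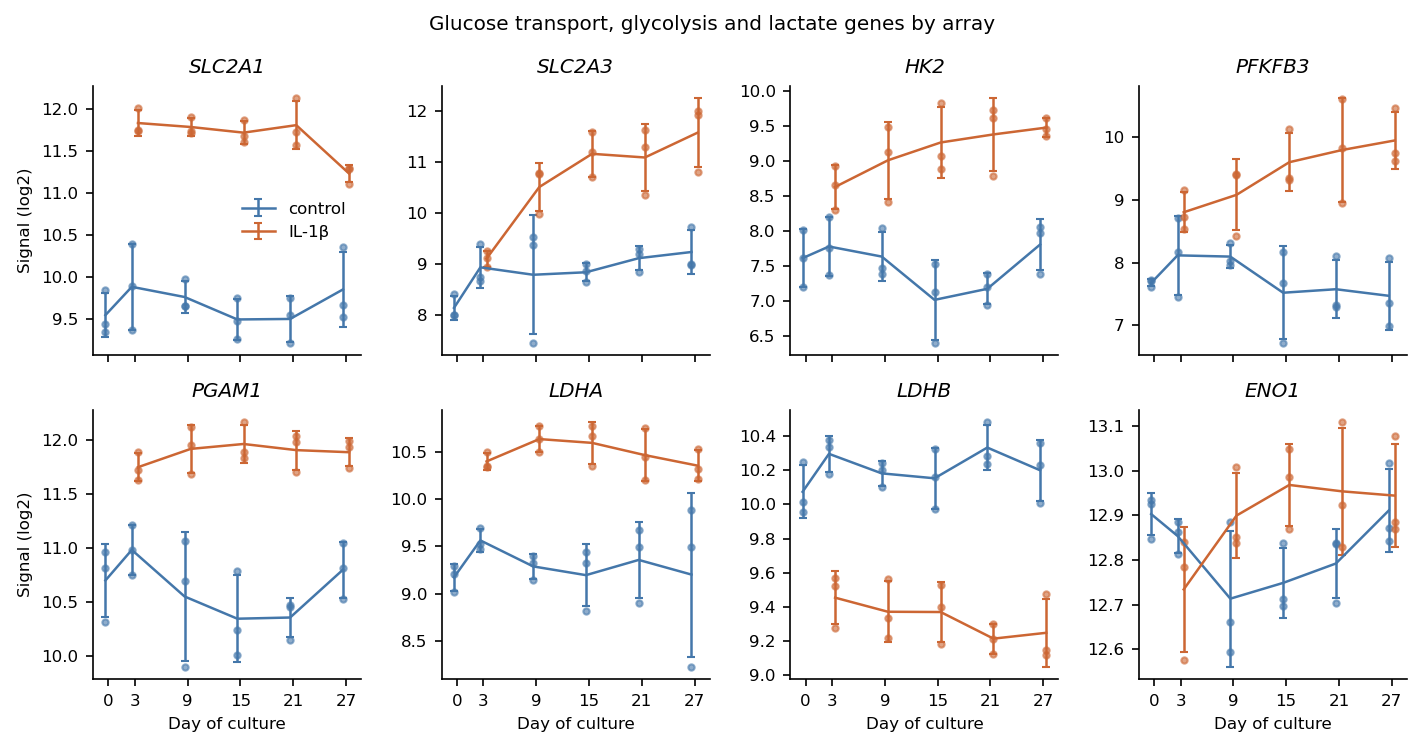
Log2 signal by day of culture for 8 genes of glucose transport, glycolysis and lactate metabolism; small points are arrays, lines join group means and bars are SD (n = 3), in blue for control and orange for IL-1β. Stimulated SLC2A1 arrays sit above all controls from day 3, SLC2A3 separates after day 3, LDHA and LDHB lie on opposite sides of their controls, and the ENO1 arms overlap when days are pooled.

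Phosphofructokinase commits sugar to glycolysis, and its isoenzymes did not move alike. PFKL, the liver-type isoenzyme, had a median of 7.67 in stimulated arrays (7.19 to 8.24) and 6.51 in controls (6.20 to 7.47) and rose by 1.01 ± 0.09. The platelet type PFKP rose by 0.39 ± 0.14, close to the threshold (adjusted p = 0.0381). That call was lost without replicates 1, 2 or 3 (adjusted p = 0.092, 0.156 and 0.0856), without the day 27 control array that stood apart (0.0649) and with quantile normalisation once more (0.0784). The muscle type PFKM had a difference of -0.21 ± 0.10, short of the threshold (adjusted p = 0.135).

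The bifunctional PFKFB enzymes set the level of the sugar bisphosphate that activates phosphofructokinase. PFKFB3, whose kinase activity dominates, had a median of 9.40 in stimulated arrays (8.43 to 10.60) and 7.96 in controls (6.72 to 8.72). It was higher in 15 of 15 pairs and rose by 1.69 ± 0.18 (adjusted p = 1.7e-08), while its arms overlapped. PFKFB4 differed by 0.04 ± 0.12 (adjusted p = 0.851), with signals of 5.04 to 6.36 against 4.84 to 6.11.

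The enzymes from aldolase to pyruvate kinase, 9 genes here, gave 6 that rose, 0 that fell (limma, 1 lower at an unadjusted p under 0.05) and 3 that did not pass. ALDOA, the main aldolase, rose by 0.91 ± 0.05, the triose phosphate isomerase gene TPI1 by 0.89 ± 0.07 and the phosphoglycerate kinase gene PGK1 by 0.94 ± 0.07. The pyruvate kinase gene PKM rose by 0.93 ± 0.08, and PGAM1, the phosphoglycerate mutase of most tissues, by 1.28 ± 0.10. PGAM1 ran from 11.63 to 12.17 with IL-1β and from 9.90 to 11.21 without it, and each of these 5 genes was higher in 15 of 15 pairs.

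GAPDH, which oxidises glyceraldehyde phosphate and is often used as a reference gene, rose by 0.97 ± 0.06 (1.96-fold, adjusted p = 6.16e-13). Its stimulated arrays were close together at 10.85 to 11.08, and its controls of days 3 to 27 lay at 9.60 to 10.49. Another probe set, annotated to GAPDH and LOC100054877 together, differed by 1.71 ± 0.09 in the same direction. The enolases were the exception among these steps. ENO1, the ubiquitous enolase, differed by 0.10 ± 0.05 (adjusted p = 0.153), with 12.58 to 13.11 in stimulated arrays and 12.59 to 13.02 in controls. Its mean signal was above 99.9% of probe sets. With quantile normalisation once more, ENO1 was called higher (0.28, adjusted p = 6.58e-05). ENO2, the neuronal enolase, differed by -0.22 ± 0.09 (adjusted p = 0.0614) and the aldolase gene ALDOC by 0.22 ± 0.14.

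At the branch from pyruvate, the subunit genes of lactate dehydrogenase moved in opposite directions. LDHA encodes the subunit that favours formation of lactate, and LDHB the subunit that favours its oxidation. LDHA ran from 10.20 to 10.77 in stimulated arrays, median 10.49, and from 8.23 to 9.88 in controls, median 9.44. LDHB ran from 9.11 to 9.57 with IL-1β, median 9.30, and from 9.97 to 10.49 without it, median 10.24. Neither gene overlapped between the arms. The average differences were 1.16 ± 0.12 for LDHA (adjusted p = 7.87e-09) and -0.90 ± 0.06 for LDHB (adjusted p = 5.06e-12). LDHB was the only 1 of the 37 genes that was lower in the test at all 5 days, and without replicate 2 its calls at day 3 (-0.84, adjusted p = 0.0518) and day 15 (-0.60, adjusted p = 0.084) were lost. At day 27 the LDHA difference of 1.15 included the control array of replicate 3 at 8.23, and it was 0.66 without that array (adjusted p = 0.0399). Without replicate 2 it was 1.31 and did not pass (adjusted p = 0.0651).

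Monocarboxylate transporters carry lactate and pyruvate across the membrane, and both members rose. SLC16A3 encodes MCT4, associated with lactate export from glycolytic cells, and had a median of 8.34 with IL-1β (7.81 to 9.53) against 7.23 (6.83 to 8.26), a rise of 1.15 ± 0.15. SLC16A1 encodes MCT1 and rose by 0.96 ± 0.10, with 6.73 to 7.40 against 5.33 to 6.73. PDK1, a kinase that holds pyruvate dehydrogenase inactive, rose by 0.76 ± 0.17 (adjusted p = 0.00115) and overlapped between the arms, at 7.37 to 8.84 against 5.99 to 8.13. PDK1 passed on average and at 0 of the 5 days taken alone in limma (3 at an unadjusted p under 0.05).

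Of 13 genes of the hypoxia response and oxygen sensing, 11 rose, 1 fell and 1 did not pass. ANKRD37, a HIF target that encodes an ankyrin repeat protein, had the largest rise among them at 1.78 ± 0.22 (3.43-fold, adjusted p = 3.51e-07). Its median was 8.94 with IL-1β (8.16 to 10.46) and 7.10 without it (6.70 to 8.22), with a slight overlap. At days 15, 21 and 27 the stimulated array of replicate 1 read 10.44, 10.36 and 10.46 for ANKRD37, the highest of each group. The mean difference of ANKRD37 over days was 2.16 in replicate 1, 1.85 in replicate 2 and 1.32 in replicate 3. The mitophagy receptor genes BNIP3 and BNIP3L rose by 0.89 ± 0.13 and 0.32 ± 0.06, and NDRG1, a stress-responsive gene, by 0.67 ± 0.10. At day 21 the call of BNIP3 (1.30) was lost without replicate 1, at 0.76 (adjusted p = 0.0689), and without replicate 2, at 1.41 (adjusted p = 0.0906).

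CA9, a carbonic anhydrase at the cell surface and a widely used hypoxia marker, went the other way. Its signal was 5.15 to 5.84 in stimulated arrays and 5.39 to 6.48 in controls, and it was lower in 10 of 15 pairs. The average difference was -0.31 ± 0.10 (adjusted p = 0.0156), and CA9 passed at 0 of the 5 days taken alone in limma (1 at an unadjusted p under 0.05). Without replicate 2 it was -0.20 (adjusted p = 0.198), without replicate 3 -0.26 (adjusted p = 0.211) and without replicate 1 -0.47 (adjusted p = 0.00454).

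Both secreted signals rose. VEGFA encodes the main growth factor of blood vessels, and its median was 12.03 with IL-1β (10.89 to 12.86) against 10.86 (10.15 to 11.65), a rise of 1.08 ± 0.16 (adjusted p = 5.43e-06). The arms of VEGFA overlapped, and its call at day 21 (1.47) was lost without replicate 1, at 0.93 (adjusted p = 0.149), and without replicate 2, at 1.48 (adjusted p = 0.113). ADM encodes the vasodilator peptide adrenomedullin. ADM ran from 10.03 to 11.67 with IL-1β and from 9.13 to 9.94 without it, with no overlap, and rose by 1.03 ± 0.14.

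The transcripts of the oxygen-regulated alpha subunits differed in their calls. HIF1A differed by -0.08 ± 0.07 (adjusted p = 0.437), with 10.48 to 11.34 in stimulated and 10.64 to 11.18 in control arrays, and was lower in 12 of 15 pairs. EPAS1, which encodes another oxygen-regulated HIF alpha subunit and is outside the 37 genes, rose by 0.38 ± 0.09 (adjusted p = 0.00283). HIF3A, the gene of a further HIF alpha subunit outside the 37, did not pass (-0.09 ± 0.08, adjusted p = 0.425). Whether these genes differ from each other was not tested. The proteins are controlled mainly after translation, which these arrays do not measure. EGLN3, an oxygen-dependent prolyl hydroxylase that is itself a HIF target, rose by 1.36 ± 0.15 (adjusted p = 5.23e-08), from a median of 7.71 (7.01 to 8.58) to 9.15 (8.08 to 9.95). EGLN1, the main hydroxylase of HIF alpha subunits, rose by 0.35 ± 0.11 (adjusted p = 0.0142). That call was lost without replicate 1 (0.25, adjusted p = 0.187) and without replicate 2 (0.34, adjusted p = 0.154). KDM3A, a hypoxia-induced histone demethylase, rose by 0.78 ± 0.09. The collagen prolyl hydroxylase genes P4HA1 and P4HA2, whose products stabilise the collagen triple helix, rose by 0.40 ± 0.08 and 0.40 ± 0.07.

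**Figure D3:**
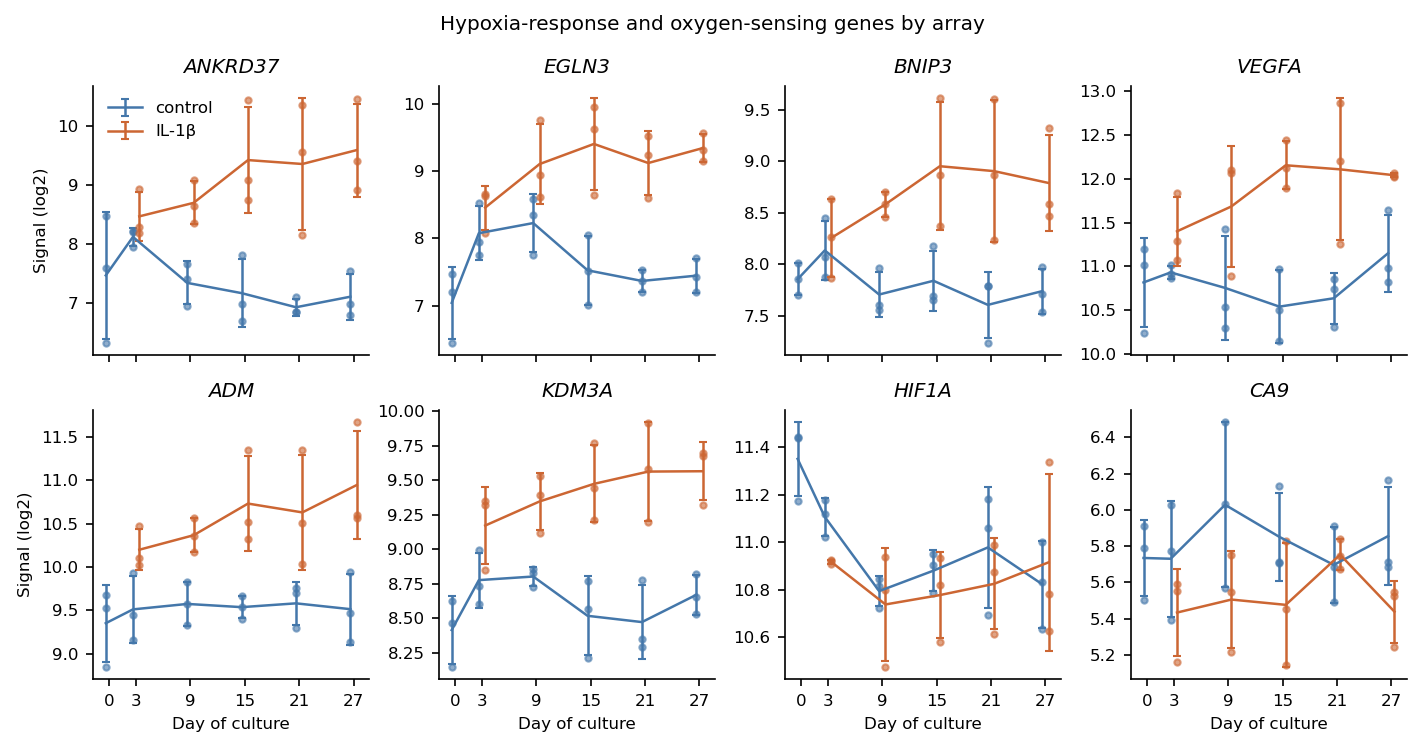
Log2 signal by day of culture for 8 genes of the hypoxia response and oxygen sensing; small points are arrays, lines join group means and bars are SD (n = 3), in blue for control and orange for IL-1β. ANKRD37 and EGLN3 have means above their controls at every harvest with wide bars, whereas HIF1A arrays of both arms overlap when days are pooled and CA9 means are lower with IL-1β at 4 of the 5 harvests.

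Taken day by day, the number of genes that passed was lowest at day 3. At that harvest 5 rose and 1 fell (1.77% and 1.54% of all probe sets). These were SLC2A1, ALDOA at 0.61 ± 0.12, TPI1 at 0.59 ± 0.16, GAPDH at 0.59 ± 0.14, PGK1 at 0.59 ± 0.15 and, as the fall, LDHB at -0.85 ± 0.14. All 6 belong to the 24 genes from glucose transport to lactate. None of the 13 hypoxia-response and oxygen-sensing genes passed at day 3 (0 in limma, 1 at an unadjusted p under 0.05, which was ADM at 0.69 ± 0.32), and their median difference was 0.29 against 0.45 for the 24.

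At day 9, 15 genes rose and 1 fell (3.91% and 3.63% of probe sets), of which 1 riser, P4HA2, was among the 13 hypoxia genes. At day 15, 23 rose and 1 fell (6.79% and 5.88%), with 8 of the 13 hypoxia genes higher. At day 21, 24 rose and 1 fell (6.11% and 6.02%), with 9 of the 13. At day 27, 19 rose and 2 fell (8.25% and 6.54%), with 5 of the 13. The 37 genes had a median difference of 0.35 at day 3 and 0.84 at day 9. It was 1.04 and 1.09 on days 15 and 21, and 0.83 on the last. With the day 27 control array of replicate 3 left out, the median at day 27 was 0.65, with 17 rises and 2 falls. Day counts were lower in several fits with a replicate left out, which had fewer arrays and 11 residual degrees of freedom in place of 22. Without replicate 1 the count at day 3 was 3, and without replicate 2 days 3, 9 and 15 gave 1, 7 and 11. Without replicate 3 the count was 9 at day 9. The median differences without replicate 2 were 0.35, 0.74 and 1.06 on days 3, 9 and 15. The median was 0.22 at day 3 without replicate 1 and 0.75 at day 9 without replicate 3.

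**Figure D4:**
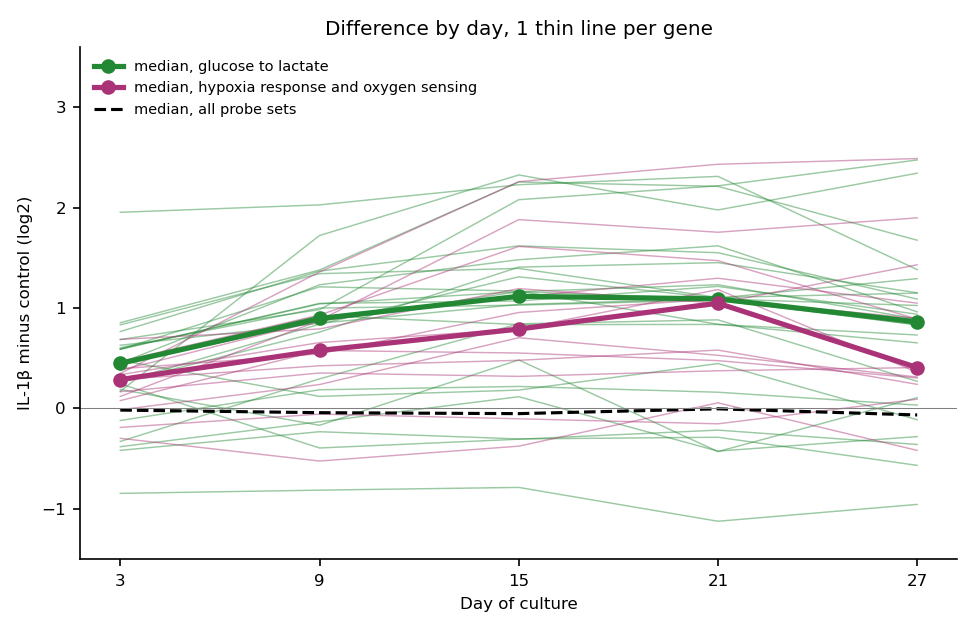
Stimulated minus control difference on the log2 scale by day; thin lines are the 37 genes, thick lines the medians of the 24 genes from glucose to lactate (green) and of the 13 hypoxia-response and oxygen-sensing genes (purple), and the dashed line the median of all probe sets. The median of the 24 is 0.45 at day 3 and 1.12 at day 15, that of the 13 is 0.29 and 0.79, and the dashed line stays near 0.

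Although fewer genes passed at day 3, a change of the difference over time was not established for any of the 37. In the F-test of whether the difference varied between days, 0 passed (limma, 10 at an unadjusted p under 0.05), against 0.409% of all probe sets. For day 27 minus day 3 of the difference, 0 passed (limma, with 7 rises and 0 falls at p under 0.05 before adjustment), against 0.451% of probe sets higher and 0.644% lower. The largest such changes were in SLC2A3 at 2.17 ± 0.58 (adjusted p = 0.0672), ANKRD37 at 2.14 ± 0.71 (adjusted p = 0.172), PFKFB3 at 1.79 ± 0.57 (adjusted p = 0.147) and EGLN3 at 1.52 ± 0.48 (adjusted p = 0.153). With the replicate number as a fixed block, SLC2A3 (adjusted p = 0.0486) and ANKRD37 (adjusted p = 0.0342) passed, and PFKL passed the F-test (adjusted p = 0.0381). With a random block, SLC2A3 passed (adjusted p = 0.0472), ANKRD37 did not, and 0 genes passed the F-test (limma, 13 at an unadjusted p under 0.05). PFKL had the smallest p of the F-test without a block (adjusted p = 0.142), with differences of 0.26 at day 3 and 1.45 at day 21.

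Within the stimulated arm, SLC2A3 was the 1 gene that passed, both for day 27 minus day 3 and in the F-test. At an unadjusted p under 0.05 in limma, 9 genes rose and 1 fell between these days, and 3 passed the F-test. The mean signal of SLC2A3 on day 3 was 9.11 ± 0.16, followed by 10.52 ± 0.46 on day 9 (SD, n = 3). On days 15 and 21 it was 11.17 ± 0.45 and 11.09 ± 0.66, and on day 27 it reached 11.58 ± 0.68. From day 3 to day 27 SLC2A3 rose by 2.47 ± 0.41 (adjusted p = 0.00103), and it passed the F-test over the 5 stimulated times (adjusted p = 0.00805). The change from day 3 to day 27 was 2.26 without replicate 1 (adjusted p = 0.0812) and 2.22 without replicate 2 (adjusted p = 0.0659), and the F-test gave adjusted p = 0.507 and 0.353. For day 27 minus day 3 of stimulated explants, 1.47% of probe sets rose and 1.81% fell, and 0.903% passed the F-test. PFKFB3 and NDRG1 followed in the F-test but did not pass (adjusted p = 0.465 and 0.51). NDRG1 read 10.36, 10.81 and 10.12 at day 3 and 11.33, 11.36 and 10.74 at day 21 with IL-1β. SLC2A1 differed by -0.60 ± 0.22 between day 27 and day 3 of stimulation (adjusted p = 0.151).

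In control explants, 4 of the 37 genes varied over the 6 times in the F-test, against 4.66% of all probe sets. They were SLC16A1 (adjusted p = 0.000125), GAPDH (0.00523), PFKP (0.0173) and ALDOA (0.021). With a fixed replicate block 7 passed, adding PFKL (0.0184), ALDOC (0.00513) and ENO2 (0.0278), and with a random block 5 passed, adding PFKL (0.0311). Without replicate 1 or without replicate 2 the count was 1, and without replicate 3 it was 2. SLC16A1 kept its call in each of these fits. GAPDH lost its call without replicates 1, 2 or 3 (adjusted p = 0.139, 0.17 and 0.183), and so did ALDOA (0.466, 0.507 and 0.0877). PFKP lost its call without replicate 1 (0.211) and without replicate 2 (0.627).

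SLC16A1 read 7.38, 7.17 and 7.61 at day 0, and 6.60, 6.39 and 6.73 at day 3 without IL-1β. Later control means of SLC16A1 were 6.09 ± 0.20, 5.82 ± 0.41 and 5.96 ± 0.54 (SD, n = 3) on days 9, 15 and 27, so that every later control array lay below the day 0 arrays. Stimulated means were 6.83 ± 0.17 on day 3 and 7.25 ± 0.14 on day 27, and the stimulated arrays at day 27 (7.13, 7.23 and 7.40) overlapped with day 0. The stimulated arrays at day 3 (6.74, 6.73 and 7.03) lay below those of day 0.

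Control GAPDH averaged 10.42 ± 0.27 on day 0 and 10.34 ± 0.20 on day 3 (SD, n = 3). Later control means were 9.90 ± 0.16 on day 9, 9.72 ± 0.11 on day 21 and 9.96 ± 0.09 on day 27. Its stimulated means stayed between 10.90 and 10.99. ALDOA averaged 11.21 ± 0.18 on day 0, 10.83 ± 0.16 on day 9 and 10.79 ± 0.04 on day 21 in controls, and between 11.83 and 11.87 with IL-1β. PFKP averaged 8.64 ± 0.83 at day 0, 7.37 ± 0.17 at day 15 and 7.80 ± 0.29 at day 27 in controls, against 8.07 to 8.34 with IL-1β. For GAPDH and ALDOA every stimulated array was also above the day 0 arrays, whereas for PFKP they overlapped.

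**Figure D5:**
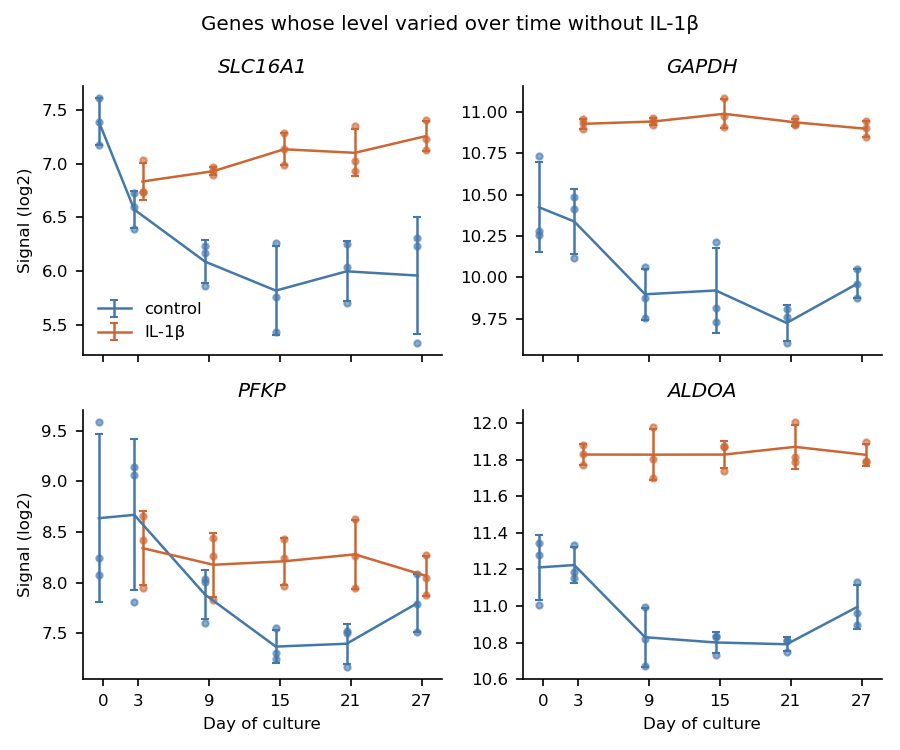
Log2 signal by day of culture for the 4 genes that passed the F-test over time in control explants. Small points are arrays, lines join group means and bars are SD (n = 3), in blue for control and orange for IL-1β. Control means of SLC16A1 go from 7.39 at day 0 to 5.82 at day 15, while its stimulated means lie between 6.83 and 7.25.

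Within the control arm, the intervals from day 0 to day 3 and from day 3 to day 27 were tested alone. Between day 0 and day 3, 0 of 37 passed (limma, with 3 rises and 1 fall at p under 0.05 before adjustment), against 0.108% of probe sets higher and 0.293% lower. SLC16A1 differed by -0.81 ± 0.21 (adjusted p = 0.11, and 0.0491 with array weights) and EGLN3 by 1.04 ± 0.34 (adjusted p = 0.273). Between day 3 and day 27, 0 passed (limma, with 1 rise and 5 falls at p under 0.05 before adjustment), against 0.44% of probe sets higher and 0.567% lower. PFKP differed by -0.87 ± 0.32 (adjusted p = 0.24) and GAPDH by -0.38 ± 0.14 (adjusted p = 0.226).

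Neighbouring pathways were described by lists of genes outside the 37, on average over days. In the same test, 15.6% of all probe sets rose and 15.3% fell. Of 14 other glycolytic isoenzymes and related genes, 1 rose and 2 fell, with a median of -0.02. PFKFB2 rose by 0.47 ± 0.10, and PGM2 and the sperm-type GAPDHS fell by 0.39 ± 0.09 and 0.15 ± 0.05. Of 8 other glucose transporters, 1 rose and 4 fell, with a median of -0.20. SLC2A9, a transporter of urate, rose by 1.09 ± 0.08, and SLC2A2 and SLC2A10 fell by 0.37 ± 0.08 and 0.35 ± 0.09. SLC2A2 and GAPDHS were dim, with mean signals above only 20.2% and 34.8% of probe sets. In the isoenzyme list, PGK2, PFKFB1, PKLR, HK3 and HKDC1 did not pass and were also below the median probe set. Their mean signals were above 15.1% (PGK2) to 47.6% (HKDC1) of probe sets, whereas all of the 37 genes lay above the median. Of 12 genes of gluconeogenesis and glycogen, 4 rose and 2 fell, with the glycogen synthase gene GYS1 at 1.18 ± 0.12, the muscle glycogen phosphorylase gene PYGM at 0.79 ± 0.12 and the branching enzyme gene GBE1 at -0.43 ± 0.07.

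Of 12 genes of pyruvate dehydrogenase and its regulators, 2 rose and 1 fell. PDP1, the phosphatase that activates the complex, rose by 1.11 ± 0.15, the mitochondrial pyruvate carrier gene MPC1 rose by 0.46 ± 0.13, and PDK4, another inhibitory kinase, fell by 1.30 ± 0.45. Of 12 citrate cycle genes, 3 rose and 3 fell, with a median of -0.05. Among them IDH3G fell by 0.58 ± 0.07, OGDH fell by 0.54 ± 0.10 and MDH2 rose by 0.38 ± 0.07. Of 6 pentose phosphate genes, 4 rose and 0 fell (limma, 0 lower at an unadjusted p under 0.05), with TALDO1 at 0.51 ± 0.05, PGD at 0.55 ± 0.07 and TIGAR, a bisphosphatase that diverts sugar into this route, at 0.88 ± 0.19.

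Regulators of HIF and further HIF targets held both rises and falls, in the test where 15.6% of all probe sets rose and 15.3% fell. Of 11 regulators, 3 rose and 1 fell, with EPAS1 among the rises. ELOC, a subunit of the ubiquitin ligase that removes HIF alpha, rose by 0.66 ± 0.06, and HIF1AN, the oxygen-dependent asparaginyl hydroxylase that limits HIF activity, by 0.62 ± 0.06. CITED2, which competes with HIF for a coactivator, fell by 0.92 ± 0.13. Of 21 other HIF targets, 8 rose and 6 fell, with a median of 0.09. The median was 0.89 for the 37 genes, and 0.67 for the 13 hypoxia-response and oxygen-sensing genes among them. The rises included ANGPTL4 at 2.23 ± 0.12, the transferrin receptor gene TFRC at 1.55 ± 0.10 and the carbonic anhydrase gene CA12 at 2.17 ± 0.17. The falls included LOX, which encodes a collagen cross-linking enzyme, at -2.53 ± 0.34, the largest difference of this list, INSIG2 at -0.88 ± 0.10 and PLOD2, a collagen lysyl hydroxylase gene, at -0.55 ± 0.05. The 37 genes and these lists were chosen by name with earlier results of these data known. The comparison of their medians is therefore a description only and was not tested.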

How the data were processed

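Expression was measured on 33 Affymetrix arrays from 2 ng of total RNA each. The authors deposited a log2 expression value per probe set and array. Affymetrix Expression Console, RMA and limma are named, per the submitters' processing notes, with no version or role, and the base of 2 was inferred from the range of 1.50 to 13.9. RMA corrects background, sets arrays to one distribution and summarises probes. No genome build is given in the sources used here, and no sequence was used. Precision is limited by 3 arrays per group.

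Deposited values were used as they stand. Groups, times and replicate numbers came from the titles. Of 25923 probe sets, 16789 had 1 symbol, 343 several and 8791 none. A symbol was represented by its probe set with the highest mean over the arrays. The limma 3.58.1 fit under R 4.3.3 (lmFit, eBayes) had 1 mean per group over the 11 groups and 22 residual degrees of freedom, without a replicate term. It covered every probe set, and Benjamini-Hochberg adjustment ran over all of them with a threshold of 0.05. P-values are two-sided. The fit was tested on simulated data with independent noise for each array, which cannot check the lack of a replicate term. The average over days counts arrays of the same number as independent, so that its SE does not measure the spread between horses.

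Deviations from group means had a median correlation of 0.164 for arrays sharing a number (165 pairs) and of -0.0841 otherwise (330 pairs). The 15 pairs of a stimulated and a control array of one day and number all correlated above 0, the lowest at 0.0781. The numbers were taken as horses from the 3 horses of the design, which no label states in words. The members, roles and other lists were chosen with earlier results of these data known, and the named genes follow a rule that takes every member and up to 3 genes per other list by p. Where a list sentence names a further gene, it was chosen after its values were seen.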

Additional observations from a re-analysis of the deposited data

How the results depend on the processing

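Results were recomputed with the replicate number as a block, fixed or random, probe sets above the median signal only, quantile normalisation once more, eBayes with trend, array weights, the day 27 control array of replicate 3 left out, and each replicate left out. Averaging probe sets per symbol was not run, since each gene had 1. Of 370 average differences (37 genes, 10 alternatives), 355 kept their direction and their side of the threshold, 9 lost and 5 gained a call, and 1 uncalled difference changed sign, PFKFB4 at -0.13 without replicate 1 (up to 0.185 without another). The count of called genes on average was 31 and ranged from 28 to 29 without a replicate. Leaving out replicates gave 1 to 5 at day 3, 7 to 17 at day 9, 11 to 24 at day 15, 17 to 26 at day 21 and 14 to 20 at day 27. It gave 0 to 1 for stimulated day 27 minus day 3, 0 to 1 for stimulated explants over time and 1 to 2 for controls over time. With the fixed replicate block the counts were 2 for day 27 minus day 3 of the difference, 1 for its variation between days and 7 for controls over time, and the block moved no other count by over 1.5 times. ALDOC and ENO2 were the average calls it added. With the random replicate block the counts were 1 for day 27 minus day 3 of the difference, 0 for its variation between days and 5 for controls over time. For day 27 minus day 3 of the difference, 1 gene passed with dim probe sets left out (fewer tests) and 2 with array weights, which also gave 1 for control day 3 minus day 0. The cause of the changes other than by fewer arrays or tests was not tested. The direction among all probe sets varied, with 4358 higher and 4515 lower under the fixed replicate block. Signal over background was not analysed here, so that differences of the genes with the lowest signals among the 37 can be understated. These were CA9, PFKFB4 and ENO2, with mean signals above 56.3%, 55.1% and 50.6% of probe sets.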
